A study of Mus musculus with 30 samples.

Results

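The transcriptional response to interferon gamma (IFNG) was followed in 2 clones of the mouse macrophage-like cell line J774A.1 that lack a single transposon copy, B2_Mm2.Dicer1. This copy is a B2 short interspersed element of the rodent-restricted B2_Mm2 subfamily and lies in an intron of Dicer1, the gene for the ribonuclease that cuts microRNA precursors and double-stranded RNA. All RNA-seq libraries labelled KO1 or KO2 were taken, 12 of the 30 libraries in the series, and the 6 libraries made after IFNG were compared with the 6 untreated ones with the clone as a block. The other 18 libraries came from 3 wild-type (WT) clones and were used only to ask where the knockout response stood apart.

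KO1 and KO2 are homozygous for the deletion, which was made by electroporating Cas9 protein with a guide RNA on each side of the element, and each was grown out by limiting dilution. The WT clones passed through single-cell seeding without the edit. Cells of each clone were either left untreated or given recombinant IFNG at 100 ng/mL for 4 h, and 3 libraries were made for each clone and treatment. Each knockout line is therefore 1 clone, the 6 libraries of a clone are not independent edits, and no label says whether the 3 libraries of a group came from separate cultures. The p-values below measure the spread between these libraries, and as in any bulk RNA sample fewer responding cells and less RNA per cell cannot be told apart.

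IFNG signals through a receptor of Ifngr1 and Ifngr2 chains to the kinases Jak1 and Jak2, which phosphorylate transcription factors of the STAT family. Their dimers bind gamma-activated sites (GAS), and the factors they induce, Irf1 first among them, act on interferon-stimulated response elements (ISRE). In macrophages this programme turns on GTPases that attack the vacuoles of intracellular microbes, antigen processing, chemokines that call in T cells, and inhibitors that close the signal again.

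The sequences that define the knockouts are the guides on either side of the element, shown with the protospacer in lower case and the PAM, the short motif Cas9 needs next to its target, in capitals. Guide gEC005 lies upstream of the element and gEC007 downstream of it.
gEC005: ggccagggaacggctttagaGGG
gEC007: aaatagtcactgggcaacagTGG

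The promoters of 4 strongly induced genes were picked because they hold letters of the sites through which the signal is known to act. Each run below holds the 250 bases before the start in GRCm38.p6, from RefSeq, read 5′ to 3′ on the strand of the gene, with matches to GAS (TTCNNNGAA) or to the ISRE core (GAAA, any 2 bases, then GAAA) in capitals. Both strands were searched. Over all 32851 promoters in the table, 8.30% held the GAS letters and 3.44% the ISRE core within 300 bases (250 before to 50 after the start), and 11.3% held either. Only 390 of the 601 genes called higher by over 2-fold had a promoter in the table. Either motif was held by 32.6% of these within 300 bases, against 11.6% of the 9436 tested genes with a promoter. Among 87 genes over 2-fold lower with a promoter it was 6.9%. No test was made of these shares, and a match is a description of the window alone. Not every induced gene held these letters: the windows of Cd274, Cxcl9 and Psmb9, whose values follow below, and of a second Irf1 promoter had no match.
Irf1, chr11:53769764-53770013, plus strand: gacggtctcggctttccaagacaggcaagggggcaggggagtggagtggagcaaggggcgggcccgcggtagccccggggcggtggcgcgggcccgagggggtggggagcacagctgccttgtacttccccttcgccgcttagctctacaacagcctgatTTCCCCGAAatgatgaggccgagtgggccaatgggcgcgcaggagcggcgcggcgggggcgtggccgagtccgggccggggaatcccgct
Igtp, chr11:58199306-58199555, plus strand: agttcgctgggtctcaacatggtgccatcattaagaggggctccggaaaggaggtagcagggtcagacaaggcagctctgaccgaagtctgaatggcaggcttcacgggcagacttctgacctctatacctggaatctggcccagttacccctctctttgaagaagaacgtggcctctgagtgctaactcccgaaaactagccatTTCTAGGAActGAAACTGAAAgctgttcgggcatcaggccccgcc
Irgm1, chr11:48871421-48871670, minus strand: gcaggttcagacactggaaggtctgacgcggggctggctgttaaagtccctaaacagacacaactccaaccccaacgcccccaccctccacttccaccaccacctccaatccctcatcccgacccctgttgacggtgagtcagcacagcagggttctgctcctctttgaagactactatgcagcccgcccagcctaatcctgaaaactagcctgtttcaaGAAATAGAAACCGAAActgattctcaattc
Cxcl10, chr5:92348890-92349139, minus strand: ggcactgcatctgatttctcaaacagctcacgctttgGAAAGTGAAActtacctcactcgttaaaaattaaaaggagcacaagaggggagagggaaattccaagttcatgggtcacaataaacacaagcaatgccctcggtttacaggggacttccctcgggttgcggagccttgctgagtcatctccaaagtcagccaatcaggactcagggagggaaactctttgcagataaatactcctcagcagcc
The Irf1 window held a single GAS match starting 90 bases before the start. Igtp had a GAS match 45 bases before the start and an ISRE core 34 bases before it. In Irgm1, 2 ISRE cores overlapped, beginning 30 and 24 bases before the start, and in Cxcl10 an ISRE core began 213 bases before it.

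The knockout libraries held 19820090 to 37992642 counted fragments. Libraries of the same clone and treatment were closer to each other, with Pearson's r of log2 CPM (counts scaled to the library total) of at least 0.996, than to any library of another group. In each of the 12 pairs within a group the counts still differed by more than counting noise (chi-square over its degrees of freedom 3.57 to 17.6), so none was a copy of another. Genes of macrophage identity were abundant: Csf1r, the receptor for colony stimulating factor 1, stood at 1309 to 1428 CPM untreated, and Cd68, a lysosomal glycoprotein of macrophages, at 600 to 631 CPM. Of 22 markers of T, B, NK, mast and dendritic cells, neutrophils, fibroblasts, endothelium, epithelium and erythroid cells, 3 passed the filter on low counts (Zbtb46, Pecam1 and Cdh5), their summed level over the whole list was 5.76 to 7.69 CPM untreated and 5.74 to 7.76 CPM after IFNG, and Cd8a, Ncr1, Elane, Col1a2, Krt18 and Hbb-bs were at 0 in all 12 libraries. Within it Pecam1 was called higher (log2FC 1.15) and Zbtb46 lower, by 0.32 on the log2 scale. In single clones 1 marker was called, higher in KO1, and none in KO2. Zbtb46 lost its call under 4 alternatives and Pecam1 with libraries thinned to the smallest total.

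IFNG changed the level of a large share of genes in the knockout clones, and the induced side was by far the steeper. Of 14370 genes tested, 5660 (39.4%) passed an adjusted p of 0.05, 2894 of them higher (20.1%) and 2766 lower (19.2%). Most changes were small, as 3858 of the calls (68.2%) had an absolute log2 fold change (log2FC) under 0.5. Changes over 2-fold were mostly gains: 601 genes rose by that much (4.18%) and 133 fell (0.926%). Above 16-fold there were 91 induced genes, of which 51 had fewer than 30 untreated counts over 6 libraries, whereas the steepest fall was a log2FC of -2.93. In 1541 genes (10.7%) every IFNG library lay above every untreated one, and in 1166 (8.11%) every IFNG library lay below. The median log2FC of all tested genes was 0.001, which is the background for the gene lists below. Counts over a list cover the members that passed the filter on low counts, and a gene that passed only through its IFNG libraries had to differ, so these counts describe the lists and test nothing.

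The deleted element lies in Dicer1 (ENSMUSG00000041415.10, chr12:104687742-104751952), and the IFNG response of this gene did not pass the test. Untreated libraries held 68.8 to 107 CPM of Dicer1, with a median of 85.6, and IFNG libraries 70.9 to 103 CPM, with a median of 88.0. The groups overlapped over nearly their whole range, and the log2FC was 0.01 ± 0.04 (SE, 6 against 6 libraries, adjusted p = 0.865). Both ranges split by clone. With all 30 libraries scaled together, KO1 had 71.5 ± 1.3 CPM untreated and 75.0 ± 5.18 after IFNG (SD, n = 3), and KO2 105 ± 3.65 and 99.6 ± 4.34.

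Markers of the response showed that IFNG acted in every treated library. Irgm1 (ENSMUSG00000046879.7, chr11:48861968-48871683), a GTPase that regulates its own family and autophagy, went from 23.2, 24.7 and 26.1 CPM (lowest, median and highest of 6 untreated libraries) to 1096, 1127 and 1225 CPM after IFNG, a 46.2-fold rise (log2FC 5.53 ± 0.04, adjusted p = 2.55e-24). Gbp4 (ENSMUSG00000079363.7, chr5:105115767-105139586), a guanylate-binding protein, went from 0.273, 0.328 and 0.403 CPM to 169, 184 and 205 CPM (log2FC 9.11). No untreated library came near an IFNG library for either gene. Iigp1, a GTPase that coats parasite vacuoles, held 13 counts in all 6 untreated libraries together and 650 to 822 CPM in each IFNG library. Tgtp2, a T-cell-specific GTPase family member, held 6 untreated counts and rose to between 81.4 and 94.8 CPM. For such genes edgeR's error is too small because the untreated counts are few, so DESeq2's is given: the log2FC was 13.22 ± 0.449 for Iigp1 and 11.19 ± 0.592 for Tgtp2.

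**Figure D1:**
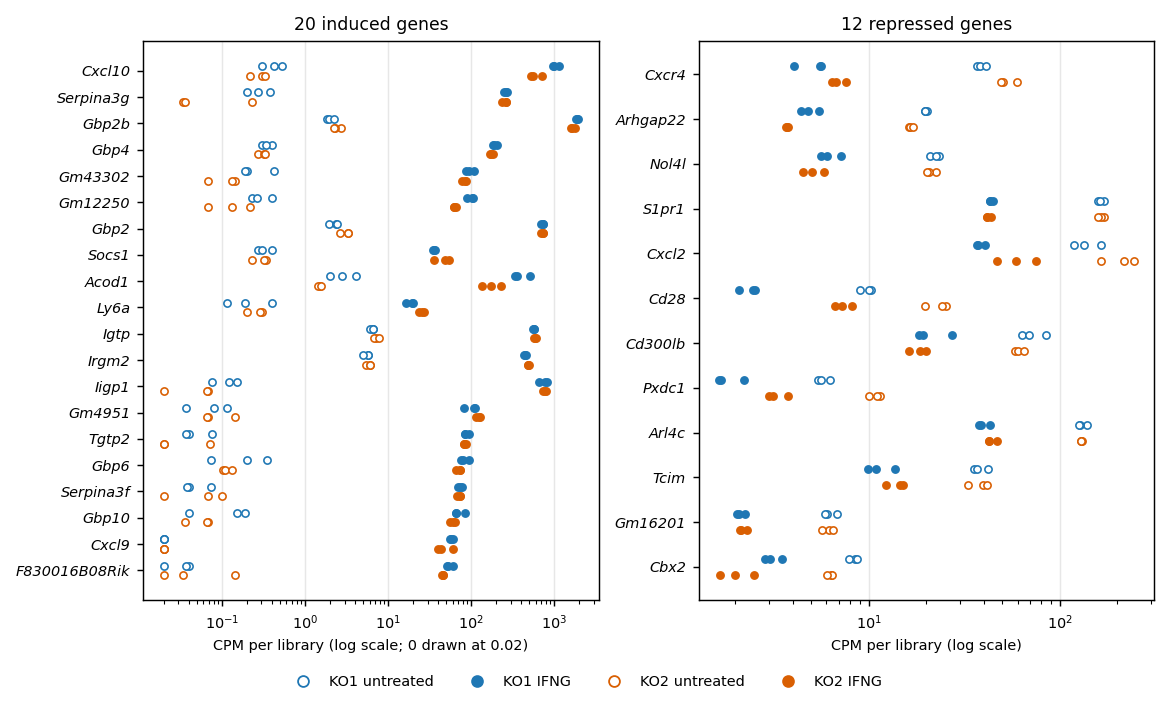
CPM in each of the 12 knockout libraries (horizontal, log scale, 0 drawn at 0.02) for 20 induced genes at left and 12 repressed genes at right; open points are untreated, filled points are IFNG, blue is KO1 and orange is KO2. In every gene shown the IFNG points lie clear of the untreated points, by 2 or 3 orders of magnitude for most induced genes and by 2.81-fold to 7.64-fold on average for the repressed ones.

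All members of both GTPase families rose. The 11 guanylate-binding proteins (Gbp), which assemble on the membranes of microbes and their vacuoles, had a median log2FC of 8.22. Gbp2b had the largest gain per length of all genes called higher, from 0.785 to 629 CPM per kb of exon, and its libraries went from 1.85, 2.22 and 2.73 CPM to 1600, 1800 and 1931 CPM (793-fold). Gbp2 rose 270-fold, from 1.93 to 3.28 CPM untreated to 697 to 740 CPM, and Gbp3 44.7-fold. Gbp5, a Gbp that also promotes inflammasome activity, had no untreated count and 18.8 to 29.7 CPM after IFNG, at least 1256-fold higher against a floor of 3 counts over the untreated group. Gbp6 rose from 0.0752 to 0.347 CPM untreated to 65.6 to 95 CPM, Gbp10 from 0.0360 to 0.193 CPM to 56.4 to 83.5 CPM and the unnamed annotation Gm43302 between them from 0.0684 to 0.424 CPM to 78.0 to 107 CPM. The smallest rise in the family, a log2FC of 4.87 for Gbp9, was still larger than that of Nlrc5, the class I transactivator (4.05). Gbp4, Gbp8 and Gbp9 overlap on the same strand, as do Gbp6, Gbp10 and Gm43302, and fragments there were counted for each, so values of these neighbours are not independent and near-identical copies are uncertain.

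Immunity-related GTPases (IRG), which destabilise pathogen vacuoles, rose in 13 of 13 cases with a median log2FC of 6.39. Igtp went from 6.06, 6.69 and 7.85 CPM to 551, 574 and 602 CPM (84.0-fold), and its neighbour Irgm2 from 5.00, 5.71 and 6.12 CPM to 433, 468 and 498 CPM (82.2-fold). These annotations overlap on the same strand, so they share some fragments. Gm4841 had no untreated count and 34.7 to 47.9 CPM after IFNG, at least 2233-fold higher, while Gm4951 (log2FC 10.35 ± 0.392 by DESeq2) and F830016B08Rik (10.18 ± 0.575) rose from 14 and 7 untreated counts. The least responsive members were 9930111J21Rik1 and 9930111J21Rik2, at log2FC 2.01 and 1.92. Summed over the family, the level moved from between 83.3 and 90.8 CPM to between 3405 and 3762 CPM.

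On the same chromosome as Dicer1 and under 1 Mb from it lie the Serpina3 genes, which encode secreted and intracellular serine protease inhibitors. Of 9 listed members 6 were tested, and these 6 rose with a median log2FC of 9.88 (9.49 with genes of 3 or fewer untreated counts set at their lower bound). The whole list summed to 0.036 to 0.601 CPM untreated, so these members passed the count filter through their IFNG libraries and had to differ. In single clones 4 were called higher in KO1 and 4 in KO2. Serpina3g, which inhibits cathepsins in the cytosol, went from 0.0342, 0.217 and 0.376 CPM to 233, 262 and 270 CPM (DESeq2 log2FC 10.43 ± 0.355), and Serpina3f from 9 untreated counts in all to 66.8 to 77.1 CPM (10.36 ± 0.483). Serpina3k, Serpina3m and Serpina3n were under the count filter. Unique alignment among these close copies makes the split between them uncertain.

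At the level of the receptor the response was weak and partly downward. Ifngr1 went from 33.7, 36.4 and 39.3 CPM to 26.3, 26.7 and 30.7 CPM (log2FC -0.40 ± 0.04), with no overlap, and Ifngr2 from 80.7 to 89.7 CPM to 62.9 to 84.3 CPM (log2FC -0.23), where the ranges overlapped. Ifnar1, a chain of the type I interferon receptor, fell by 0.50 on the log2 scale. Among the kinases Jak2 rose 1.77-fold, Jak3 had a log2FC of 0.51 and Jak1 of 0.21, and Tyk2 was not called (0.02).

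Other members of the pathway rose more. Stat2, a factor of type I interferon signalling, went from 16.7, 20.2 and 22.8 CPM to 138, 152 and 172 CPM (7.61-fold). Stat3, a factor of interleukin 6 and 10 signalling, rose 4.79-fold, whereas Stat6, the factor of interleukin 4 signalling, fell by 0.20 on the log2 scale. Over the list of receptors, kinases and STATs, 9 of 14 tested members rose, 4 fell and the median log2FC was 0.24.

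Of 13 tested interferon regulatory factors and partners 8 rose, 2 fell and the median log2FC was 0.86. Irf1, a transcription factor induced early by IFNG, went from 16.3, 20.3 and 25.6 CPM to 694, 745 and 773.8 CPM (35.3-fold, log2FC 5.14 ± 0.06). Batf2, a basic leucine zipper factor that works with Irf1, rose 63.9-fold, from 1.01 to 2.22 CPM to 67.5 to 136 CPM. Irf8, a lineage factor of macrophages, started high at 127 to 145 CPM and rose 4.99-fold, and Irf7 rose 8.09-fold and Irf9 2.55-fold. Irf3, the factor activated by viral nucleic acid, was not called (-0.08), nor was Irf4 (0.28).

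Inhibitors of the pathway were among the steepest genes. Socs1, which blocks the Jak kinases, went from 0.232, 0.312 and 0.403 CPM to 34.7, 36.3 and 54.5 CPM (132-fold). Socs3, which acts mainly on receptors that use Stat3, rose from 2.66, 5.09 and 8.44 CPM to 231, 244 and 284 CPM (47.4-fold), and Cish 45.8-fold. Usp18, which removes Isg15 and restrains the type I interferon receptor, rose 7.45-fold, and the phosphatases Ptpn1 and Ptpn2 had log2FC of 0.75 and 0.62. Together 9 of 14 tested feedback genes rose and 2 fell, the latter being Socs5 (-0.26) and Pias3 (-0.50), with a median log2FC of 0.37.

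Among CXC chemokines the 3 ligands of Cxcr3 were switched on, Cxcl16, a ligand of Cxcr6, rose, and Cxcl2 fell. Cxcl10 went from 0.216, 0.319 and 0.524 CPM to 531, 845 and 1132 CPM (DESeq2 log2FC 11.17 ± 0.220). Cxcl9 had no count in any untreated library and 39.9, 56.6 and 61.2 CPM after IFNG, at least 2825-fold higher, and Cxcl11 had 1 untreated count and 10.8 to 27.9 CPM. Cxcl16 had a log2FC of 0.83. In contrast Cxcl2, a ligand of the neutrophil receptor Cxcr2 and the one such attractant tested, as Cxcl1, Cxcl3 and Cxcl5 were under the count filter, fell from 118, 164 and 243 CPM to 36.9, 43.8 and 74.9 CPM, 3.54-fold lower (log2FC -1.82 ± 0.11, adjusted p = 5.64e-11), with no overlap. Of 10 listed CXC chemokines 6 were tested, with 4 higher and 1 lower; the median log2FC was 5.80, or 5.41 with Cxcl9 and Cxcl11 at their lower bounds.

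Among CC chemokines 5 of 10 tested genes rose and 1 fell, with a median log2FC of 0.63. Ccl2, which recruits monocytes, was already abundant at 127, 173 and 198 CPM and reached 572, 658 and 684 CPM (3.81-fold). Its neighbours Ccl7 and Ccl12, also monocyte attractants, rose 9.31-fold and 8.01-fold. Ccl8, at the end of the same cluster, had 3 untreated counts and 0.478 to 1.29 CPM after IFNG. Ccl3 was not called (-0.06), Ccl5 was not called (0.51) and Ccl6 fell by 0.23 on the log2 scale.

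Receptors for these signals moved in both directions, 5 of 10 tested higher and 5 lower, with a median log2FC of -0.13. Cxcr4 (ENSMUSG00000045382.6, chr1:128588199-128592293), the receptor for Cxcl12, showed the steepest fall of any gene at 5 CPM or more, from 36.8, 44.9 and 59.4 CPM to 4.04, 6.01 and 7.56 CPM, 7.64-fold lower (log2FC -2.93 ± 0.07, adjusted p = 7.58e-17). C5ar1, the receptor for complement fragment C5a, fell 1.75-fold from 342 to 457 CPM to 190 to 258 CPM, Cx3cr1 fell 1.73-fold and Cxcr3 itself 1.79-fold. Ccr1 rose by a log2FC of 3.48 but stayed low, at 1.33 to 3.41 CPM after IFNG.

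Of 16 tested cytokines and mediators 11 rose and 1 fell, with a median log2FC of 1.1. Csf1, the growth factor of macrophages, went from 2.22, 2.46 and 3.64 CPM to 50.7, 57.0 and 66.1 CPM (22.1-fold), and Tnfsf10, the death ligand TRAIL, rose 19.3-fold. Tnf ranged widely untreated, at 63.7, 118 and 200 CPM, and lay at 206, 235 and 314 CPM after IFNG (2.1-fold), so the groups did not overlap but nearly met. Ptgs2, the prostaglandin synthase, rose 3.57-fold, from 8.79 to 14.6 CPM to 29 to 53.6 CPM. Il1rn, the receptor antagonist of interleukin 1, rose 2.20-fold with overlapping groups, while Il1b (-0.24) and Il10 (-0.34) were not called and Il6, Il12a and Il12b were under the count filter.

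In antigen presentation by class I molecules the regulator Nlrc5 and the transporter Tap1 rose most, and the classical heavy chains rose by little. Nlrc5 went from 6.36, 7.22 and 8.50 CPM to 101, 122 and 145 CPM (16.5-fold), and Tap1, which carries peptides into the endoplasmic reticulum, from 18.6, 20.8 and 23.5 CPM to 239, 255 and 278 CPM (12.4-fold). The classical heavy chains H2-K1 and H2-D1 changed by 1.24-fold and 1.27-fold, and B2m, the invariant light chain, by 1.56-fold from 500, 520 and 608 CPM to 753, 842 and 915 CPM. Even so B2m was among the 5 largest gains per length, from 620 to 966 CPM per kb. Another of these 5 was Gm23419, a short annotation inside the actin gene Actg1 on the same strand, whose log2FC was only 0.10 and whose fragments are shared with Actg1. Between them lay Tap2 (log2FC 1.29), the peptide-loading factors Tapbpl (1.76) and Tapbp (0.82), and the non-classical H2-T24 (2.99) and H2-T23 (1.47). Over the list 16 of 20 rose, none fell and the median log2FC was 0.54, and the 4 not called were H2-M3 and the chaperones Calr, Canx and Pdia3.

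The inducible proteasome subunits rose and their constitutive counterparts moved little. Psmb9 went from 19.4, 22.2 and 25.3 CPM to 61.4, 69.6 and 80.0 CPM (3.09-fold), Psmb10 had a log2FC of 1.15 and Psmb8 rose 1.62-fold. Of 8 immunoproteasome and PA28 genes 7 rose (median log2FC 0.68), whereas 8 of 14 constitutive subunits were called, all higher, with a median of 0.08 and none above 0.34. In single clones 2 constitutive subunits were called higher in KO1 and 7 in KO2, against 16.2% and 13.9% of all genes tested in each clone. Class II genes did not follow: 7 of 12 listed were tested and only Ctss, the protease that trims the invariant chain, was called (1.18-fold). Cd74, the invariant chain, held 300 to 349 CPM untreated and 317 to 467 CPM after IFNG (log2FC 0.17 ± 0.07, adjusted p = 0.0593), and Ciita, the class II transactivator, stayed at or below 0.161 CPM untreated and 0.443 CPM after IFNG, under the filter.

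Genes better known from type I interferon and antiviral defence made up the longest list, a length set when the lists were drawn up. Of 31 tested antiviral effectors 30 rose, with a median log2FC of 1.46, and only Ifi27 was not called. Samhd1, which depletes nucleotides, was the most abundant, from 258, 265 and 277 CPM to 995, 1055 and 1082 CPM (3.95-fold). Ifit1, which binds foreign RNA caps, rose 23.7-fold from 0.308 to 0.765 CPM to 10.4 to 14.52 CPM, and Rsad2, or viperin, 14.1-fold from 0.694 to 1.33 CPM to 11.9 to 16.1 CPM. Mx1 rose 9-fold yet did not pass 1.1 CPM in any library. Isg15, a ubiquitin-like modifier, went from 0.431, 0.737 and 0.977 CPM to 5.99, 8.22 and 8.59 CPM (11-fold), and all 5 genes of its conjugation pathway rose (median log2FC 1.32).

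Sensors of nucleic acid rose in 11 of 13 cases (median log2FC 1.57). Zbp1, which senses Z-form nucleic acid, rose 46.4-fold, and its untreated libraries already spread from 0.0342 to 0.940 CPM and its IFNG libraries from 4.72 to 38.8 CPM. Trex1, a DNA exonuclease, rose 7.68-fold and Tmem173, which encodes the adaptor STING, 3.13-fold, while Mavs, the adaptor of the RNA helicases, fell by 0.42 on the log2 scale. In the p200 family of DNA-binding proteins 11 of 12 rose, with a median log2FC of 3.31: Ifi203 went from 32.1, 40.5 and 44.7 CPM to 416, 473 and 500 CPM and Ifi202b from 27.1, 40 and 51.7 CPM to 376, 435 and 532 CPM. Aim2, the member that builds an inflammasome, was the one not called (0.02).

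All 15 tested TRIM ubiquitin ligases rose (median log2FC 2.05), among them Trim30a from 34.2, 39.5 and 43.8 CPM to 187, 198 and 215 CPM (5.11-fold) and Trim21, an intracellular antibody receptor, 5.36-fold. Of 14 PARP family genes 11 rose and 2 fell (median 1.44). Parp14, an ADP-ribosyltransferase of macrophage activation, went from 38, 44.5 and 54.1 CPM to 598, 641 and 695 CPM (14.4-fold), whereas Parp1, the DNA repair enzyme, fell by 0.15 on the log2 scale. Schlafen genes, which restrict growth and viruses, rose in 7 of 7 tested cases (median 1.07), from a log2FC of 0.52 for Slfn3 to 4.41 for Slfn5.

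Effector enzymes were uneven, with 7 of 15 tested genes higher and 2 lower (median log2FC 0.16). In single clones 5 were called higher and none lower in KO1, and 4 higher and 1 lower in KO2. Acod1, which makes itaconate, went from 1.44, 1.78 and 4.14 CPM to 134, 284 and 516 CPM (128-fold). Nos2, the inducible nitric oxide synthase, rose 19-fold but only to 2.86, 8.17 and 11.9 CPM. Sod2, the mitochondrial superoxide dismutase, rose 2.56-fold. Subunits of the phagocyte oxidase changed little, at log2FC of 0.16 for Cybb and 0.26 for Ncf1, and Arg1, the arginase of alternatively activated macrophages, was not called (0.06).

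Surface molecules that speak to T cells included one of the largest abundant responses. Cd274, or PD-L1, the ligand of an inhibitory T cell receptor, went from 4.61, 5.59 and 6.84 CPM to 255, 291 and 327 CPM (51.3-fold, log2FC 5.68 ± 0.05). Cd40 rose 8.37-fold and the costimulatory ligand Cd86 2.35-fold, while Cd80 was not called (0.01) and Vsir, another inhibitory receptor, fell by 0.75 on the log2 scale. Receptors for immunoglobulin G rose in 4 of 5 cases: Fcgr4 from 30.3, 35.4 and 40.2 CPM to 222, 231 and 256 CPM (6.68-fold), Fcgr1 4.74-fold, Fcgr3 2.1-fold and the inhibitory Fcgr2b 1.52-fold. Their common chain Fcer1g was not called (0.03).

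Toll-like receptors showed no common direction, with 6 of 14 tested genes higher, 4 lower and a median log2FC of -0.04. Myd88, the adaptor of most of these receptors, rose 2.18-fold from 68.6, 73.0 and 76.1 CPM to 148, 157 and 170 CPM. Tlr13, a receptor for bacterial ribosomal RNA, fell 1.55-fold from 368, 406 and 458 CPM to 225, 270 and 293 CPM, and Tlr5 and Tlr8 also fell. Of 20 tested cell death and inflammasome genes 14 rose and 2 fell (median 0.48). Fas rose 8.48-fold, Casp4, the sensor of cytosolic lipopolysaccharide, 6.09-fold, and Mlkl, the executor of necroptosis, 2.18-fold, whereas Nlrp3, an inflammasome sensor, fell 1.56-fold and Nlrc4 fell by 0.45 on the log2 scale.

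Complement genes rose in 9 of 11 tested cases (median log2FC 0.80), with C1s1 at 26-fold and C3, whose groups overlapped, at 1.96-fold. Among 14 genes of NF-kB 11 rose and 1 fell (median 0.43), most by little. In single clones 11 were called higher in KO1 and 7 in KO2, against 16.2% and 13.9% of all genes tested in each clone. Bcl3, a nuclear partner of the p50 subunit, rose 7.27-fold from 4.55 to 7.05 CPM to 40.5 to 56.6 CPM, and Tnfaip3, the deubiquitinase A20, 3.03-fold, while Rela was not called (0.04). Immediate early genes went both ways, 10 of 23 higher and 8 lower with a median of 0.08. Egr2 rose 6.72-fold and Atf3 2.17-fold, and Egr1 rose 2.54-fold with overlapping groups. On the other side Dusp6 and Dusp1, phosphatases that switch off MAP kinases, fell 2.39-fold and 2.20-fold, and Fos fell 1.65-fold.

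**Figure D2:**
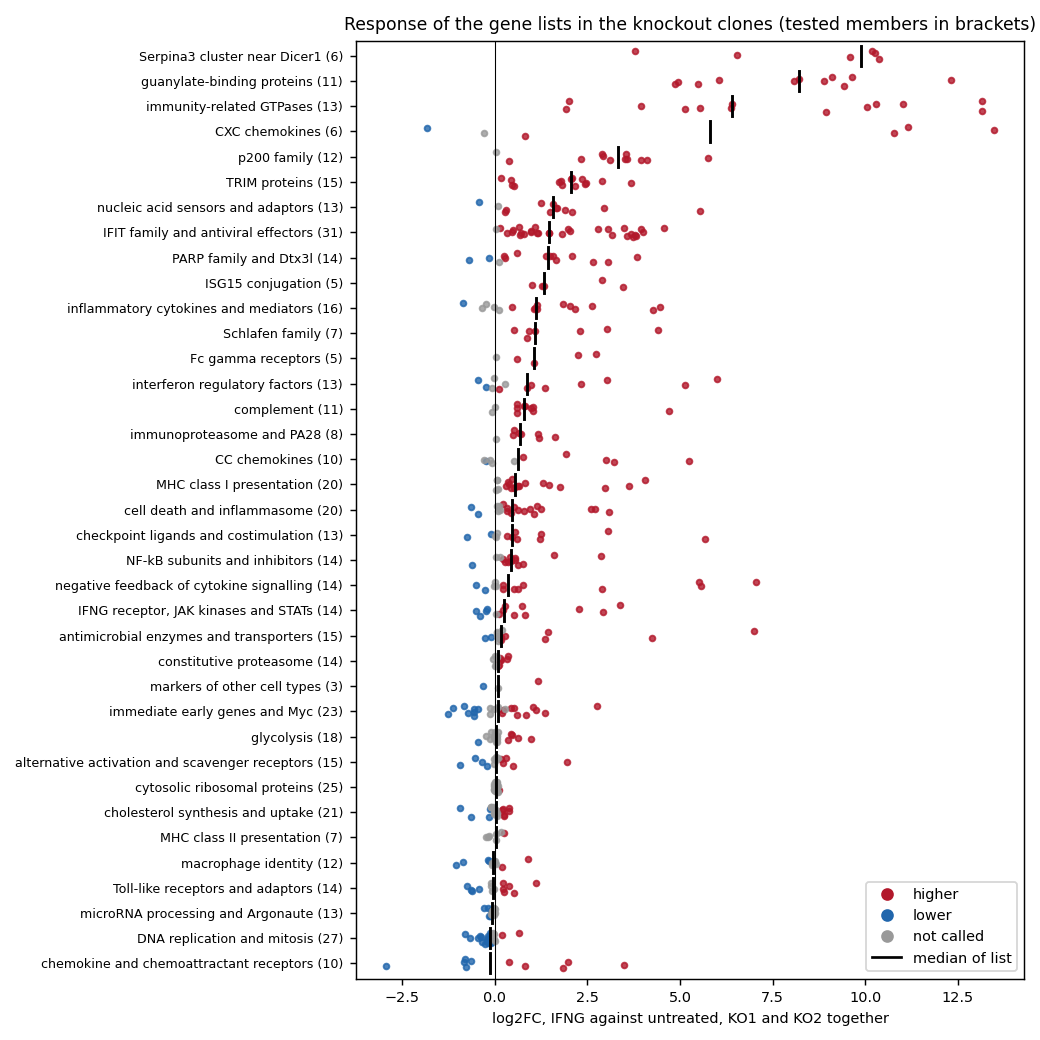
Log2FC of IFNG against untreated in the knockout clones (horizontal) for each tested member of 37 gene lists, ordered by the median of the list (black bar); red points were called higher, blue lower and grey were not called. The Serpina3, Gbp and IRG lists lie furthest to the right with medians of 9.88, 8.22 and 6.39, and the lists of ribosomal proteins, class II genes and macrophage identity sit around 0.

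Repression was shallower but reached abundant genes. Of the 133 genes that fell by over 2-fold 69 stood at 5 CPM or more untreated. S1pr1, the receptor for sphingosine 1-phosphate that guides cell egress, fell from 158, 163 and 170 CPM to 41.3, 43.0 and 44.8 CPM (3.82-fold lower, log2FC -1.93 ± 0.03). Arl4c, a small GTPase, fell from 126, 129 and 139 CPM to 37.8, 42.4 and 47.0 CPM (3.11-fold). Libraries within each treatment were tightly grouped for both genes.

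Further down the list Cd300lb, an activating myeloid receptor, fell 3.36-fold from 58.0 to 84.8 CPM to 16.3 to 27.1 CPM. Arhgap22, a regulator of Rac GTPase, fell 4.26-fold and Nol4l 3.85-fold. Cd28, best known as the costimulatory receptor of T cells, fell 3.42-fold from 9.02, 14.9 and 25.3 CPM to 2.08, 4.61 and 8.15 CPM, without overlap. Among the rest Tcim, Pxdc1, Gm16201 and Cbx2, a Polycomb subunit, fell by between 2.81-fold and 3.25-fold. None of these 12 most repressed genes differed between the clones by the test given below, which passed in only 0.153% of all genes tested. Choosing them by libraries separated in both clones also favoured agreement, so this count is no result about these genes.

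Of 27 genes of DNA replication and mitosis 19 fell, most by small amounts, 2 rose and 6 were not called, with a median log2FC of -0.12. In single clones 13 were called lower in KO1 and 12 in KO2, against 13.2% of all genes tested in each clone. Cdc6 and Cdt1, which load the replicative helicase, fell 1.76-fold and 1.59-fold, from 46.8 to 52.6 CPM to 27 to 30 CPM and from 103 to 115 CPM to 58.8 to 74.9 CPM. Ccnd1, cyclin D1, fell 1.36-fold. The 2 that rose were Cdkn1a, the p21 inhibitor of cyclin-dependent kinases (1.57-fold), and Top2a (1.14-fold). Mki67 was not called (-0.02).

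Metabolic lists did not move as a whole. In glycolysis 5 of 18 rose and 1 fell with a median of 0.04, a share of calls (33.3%) under the 39.4% of all genes. Hk2 rose 1.96-fold from 58.9, 67.6 and 76.8 CPM to 115, 135 and 153 CPM, Hk1 1.56-fold, and Hk3, Pfkp and Slc2a1 by log2FC of 0.45, 0.46 and 0.35. Pfkfb3 fell by 0.46 on the log2 scale, and Gpi1, Pfkl and Pfkm were not called. In cholesterol synthesis and uptake 6 of 21 rose and 4 fell (median 0.03), and Abca1, which exports cholesterol, fell 1.90-fold. Of 15 tested genes of alternative activation 5 rose and 4 fell. Il4ra, the interleukin 4 receptor, rose 3.89-fold, while Pparg, a lipid-sensing nuclear receptor, fell by 0.94 on the log2 scale at under 1 CPM.

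Housekeeping lists moved little. Of 25 cytosolic ribosomal proteins 1 was called, Rpl5 at a log2FC of 0.10, and the median was 0.04. That call was lost under 11 alternatives, among them the fit over all 30 libraries and 7 fits that left out a library, and was made in neither clone alone. In the microRNA pathway, to which Dicer1 belongs, 5 of 13 fell, by at most 0.30 on the log2 scale (Ago4), and none rose. Of all tested genes 19.2% were called lower and 39.4% in either direction. In single clones none was called in KO1 and Ago3 and Ago4 were called in KO2, and Ago3, Ago4, Dgcr8 and Tarbp2 lost their call without the clone term, Ago3 also without any one of 4 KO2 libraries. Macrophage identity genes had a median of -0.04 with 2 higher and 4 lower, and their summed level was 10977 to 11964 CPM untreated and 10740 to 11055 CPM after IFNG. Within them Mertk, a receptor for dying cells, fell 2.08-fold, Cebpa fell 1.81-fold and Cebpb rose 1.86-fold.

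Some induced genes lay side by side. When genes called higher by over 2-fold were chained over gaps of up to 100 kb, 308 of the 601 fell in 95 clusters of 2 or more, and 98 in 12 clusters of 5 or more. These counts were not set against the spacing of all genes. The intervals start and end at induced genes by construction, so a complete count inside one is largely fixed by how it was built. All 12 tested genes of the p200 interval at chr1:173630917-174031810 rose, as did all 12 of the interval from Irgm1 at chr11:48861968-49187159, which holds the Tgtp genes and Ifi47, and all 11 of the Trim interval at chr7:104244457-104535361. The Gbp genes fell into 2 intervals, chr3:142493978-142746870 with 8 of 8 tested genes higher and chr5:105014150-105346472 with 7 of 7. The Serpina3 interval at chr12:104146382-104320725 had 7 of 7, and Ccl2, Ccl7, Ccl12 and Ccl8 at chr11:82035571-82116799 4 of 4. Not every interval was complete: 13 of 15 tested genes were higher at chr1:84963669-85342086 and 7 of 16 at chr14:55591708-55768494, around Irf9. These coordinates are in mm10. Overlapping annotations and close copies share fragments in several of these intervals, so neighbours are not independent.

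The question of how far the clones agreed was taken up next, with each clone tested on its own 6 libraries. KO1 gave 4043 calls among 13757 genes (29.4%) and KO2 3808 among 14038 (27.1%). Changes over 2-fold were called higher in 4.40% and lower in 0.923% of genes in KO1, and in 3.75% and 1.06% in KO2. Across the 13611 genes tested in both, Pearson's r of the log2FC was 0.942 and Spearman's rho 0.720, given as a description since genes are not independent and each clone's value rests on its own 3 untreated libraries. At a mean of at least 5 CPM the values were 0.982 and 0.843 over 10058 genes. Of the genes tested in both, 2934 were called in both clones, which is 73.1% of the 4013 KO1 calls and 78.2% of the 3750 KO2 calls.

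Direction was nearly always shared. Among the 2934 genes called in both, 1623 were higher and 1310 lower in both, and a single gene, Pde1b, a cyclic nucleotide phosphodiesterase named here after its value was seen, had opposite signs (log2FC 0.34 in KO1 and -0.28 in KO2). Of the 1079 genes called in KO1 alone 973 had the same sign in KO2, and of the 816 called in KO2 alone 742 had the same sign in KO1, against 5900 of the 8782 called in neither. For genes over 2-fold higher, 458 were shared by the 586 of KO1 and the 495 of KO2, or 78.2% and 92.5% of each list. For genes over 2-fold lower 85 were shared by 120 and 133, or 70.8% and 63.9%.

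Sizes were also close. In genes called in both clones the median absolute difference of log2FC was 0.076. Among 529 genes over 2-fold higher in the pooled fit and tested in both clones, r was 0.970, and the log2FC was the larger in KO1 for 376 of them. The marker Irgm1 had a log2FC of 5.60 in KO1 and 5.46 in KO2, Gbp4 of 9.09 and 9.13, Cxcr4 of -2.91 and -2.95, and S1pr1 of -1.91 and -1.96.

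**Figure D3:**
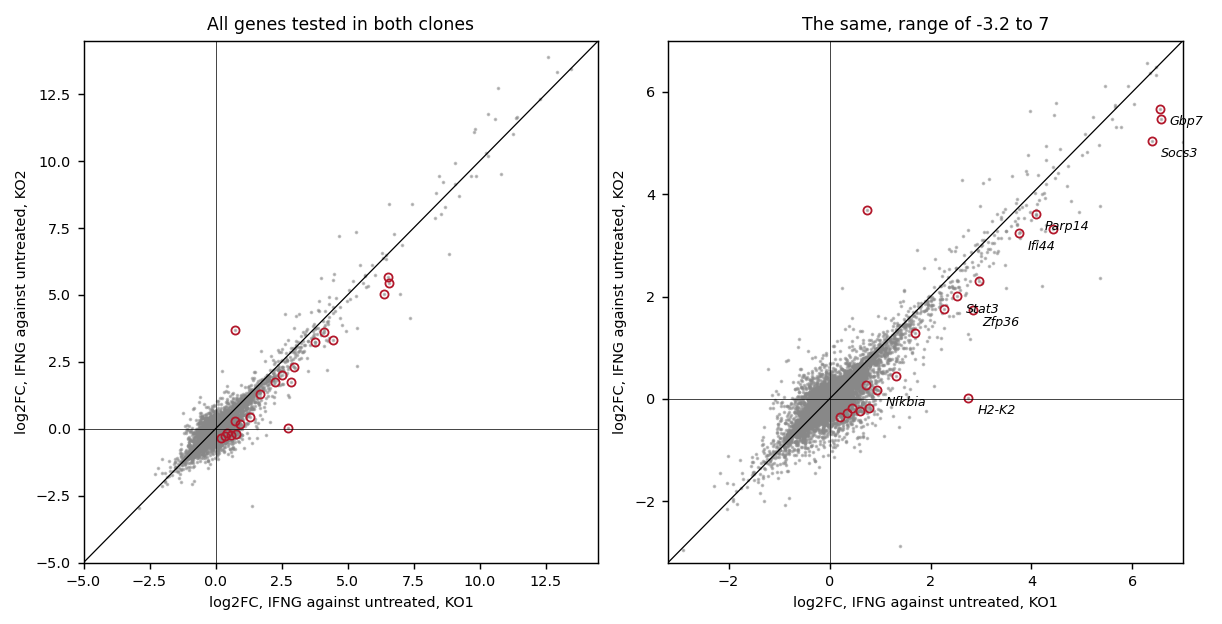
Log2FC of IFNG against untreated in KO1 (horizontal) and KO2 (vertical) for the 13611 genes tested in both clones, with the whole range at left and the dense centre at right; red circles mark genes whose response differed between the clones and the line marks equal responses. Most points follow the line (Pearson's r 0.942), and most circled genes lie below it, on the side of a larger response in KO1.

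The difference between the clones was tested directly as the interaction of clone and treatment. It passed the threshold in 22 of 14370 genes (0.153%), 20 with a higher log2FC in KO1 (0.139%) and 2 with a higher one in KO2 (0.0139%), of which 5 (0.0348%) and 2 differed by over 2-fold, and 927 genes had an unadjusted p under 0.05. The number depended on the test and on single libraries: DESeq2 gave 43, and leaving out single libraries gave 7 to 33. It moved by over 1.5 times without any one of the 3 untreated KO1 libraries, of 2 untreated KO2 libraries or of 2 KO2 IFNG libraries. Of the 601 genes induced by over 2-fold 13 were among the 22, and of the 133 repressed ones none.

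Genes with the larger response in KO1 included the feedback inhibitor Socs3, with a log2FC of 6.38 in KO1 and 5.04 in KO2 (difference 1.34 ± 0.17, adjusted p = 0.00421). In KO1 it went from 3.06 ± 0.594 to 255 ± 27 CPM (SD, n = 3) and in KO2 from 7.60 ± 1.05 to 250 ± 17.9 CPM, so the clones differed untreated and met after IFNG. Zfp36, which destabilises cytokine mRNA, went from 80.4 ± 15.3 to 577 ± 41.0 CPM in KO1 and from 212 ± 25.8 to 710 ± 66.6 CPM in KO2 (difference 1.1). Stat3 went from 70.2 ± 3.53 to 405 ± 21.6 CPM and from 92.1 ± 2.23 to 369 ± 12.9 CPM (difference 0.52). The same pattern held for Gbp7 (difference 0.87), which went from 3.74 ± 0.359 to 349 ± 2.91 CPM in KO1 and from 6.41 ± 0.383 to 328 ± 19.5 CPM in KO2.

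H2-K2, a class I gene of the H2-K region, responded in KO1 alone by its own values, from 1.94 ± 0.285 to 13 ± 1.61 CPM in KO1 and from 7.12 ± 3.29 to 7.14 ± 1.25 CPM in KO2 (difference 2.74 ± 0.38). Nfkbia, the inhibitor of NF-kB, went from 80.9 ± 4.98 to 155 ± 16.9 CPM in KO1 and from 163 ± 12 to 186 ± 25.8 CPM in KO2. Gbp7, Zfp36, Atp6v0a1 (a subunit of the vacuolar proton pump), Stat3, Socs3 and H2-K2 were the 6 that kept their call in all 12 leave-one-out fits. Cdc42ep2, an effector of the Cdc42 GTPase (difference 1.12), and Gm43802 (1.11), which overlaps Gbp7 on the same strand, also had the larger response in KO1.

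All 20 genes with the larger log2FC in KO1 had a higher untreated mean in KO2, against 50.5% of all tested genes, and 15 had a higher IFNG mean in KO1. The median log2 ratio of KO2 to KO1 over these 20 was 0.67 untreated and -0.11 after IFNG. An untreated level enters both the ratio and the response, so choosing genes by a larger log2FC in KO1 favours a higher untreated mean in KO2. The count therefore cannot show in which treatment the differences arose. The genes were also not alike, as the clone means of Dusp10 and Malat1 lay further apart after IFNG than untreated. In the opposite direction stood Anpep, an aminopeptidase of myeloid cells, which KO1 held at 81.0 ± 3.33 CPM untreated and 102 ± 5.54 after IFNG while KO2 had 0.0224 ± 0.0194 and 0.364 ± 0.149 CPM (a call lost with DESeq2 and without any one of 4 KO2 libraries), and Ak4, an adenylate kinase whose clone means did not pass 1.1 CPM.

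**Figure D4:**
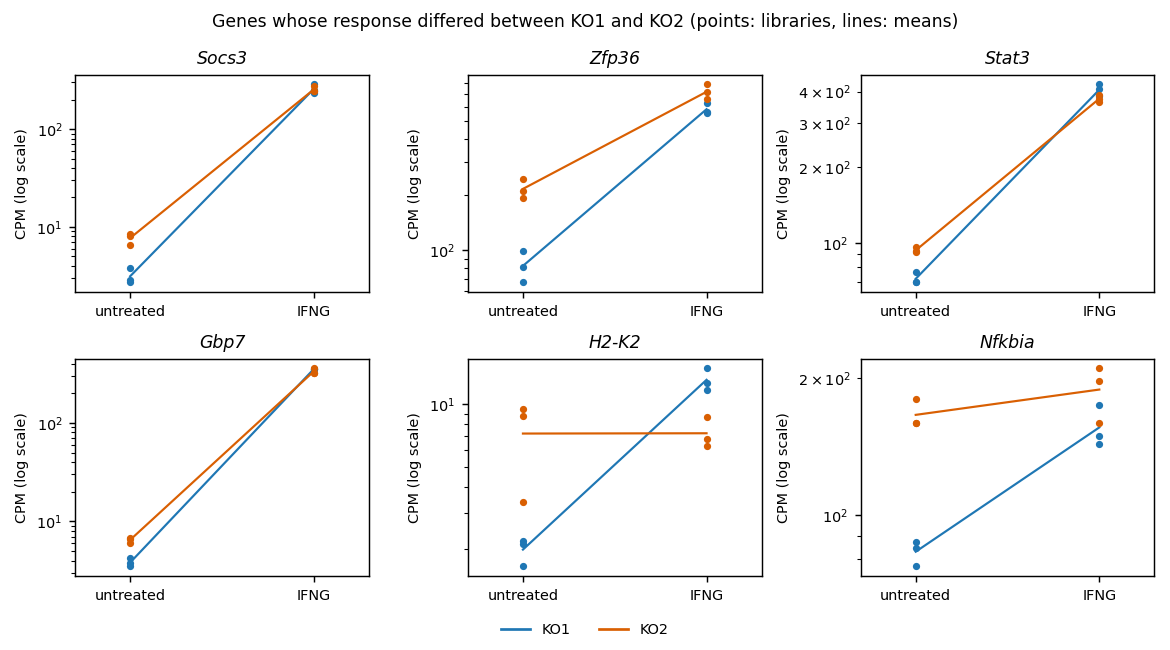
CPM (vertical, log scale) of 6 genes whose response differed between KO1 (blue) and KO2 (orange), untreated and after IFNG; points are libraries and lines join clone means, with all 30 libraries scaled together. In Socs3, Zfp36, Stat3, Gbp7 and Nfkbia the KO2 points lie above the KO1 points untreated, and the gap narrows or closes after IFNG, while H2-K2 rises in KO1 alone.

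To see where the knockout response differed from that of unedited cells, the interaction of genotype and treatment was tested over all 30 libraries, with 2 knockout and 3 WT clones. It passed the threshold in 151 of 14870 genes (1.02%), 101 with a higher (0.679%) and 50 with a lower (0.336%) log2FC in the knockouts. Only 4 genes in each direction (0.0269%) differed by over 2-fold. This number rests heavily on single clones: it was 21 without KO1, 130 without KO2, and 37, 82 and 564 without each WT clone in turn. The test takes its error from libraries, and with 2 against 3 clones the effect of the deletion and differences between clones cannot be told apart. Of the 601 genes over 2-fold higher in the knockouts 51 were among the 151, 39 with the larger log2FC in the knockouts and 12 with the smaller one, and the median difference over the 601 was 0.08.

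Dicer1 was one of these genes. Its mean levels rose from between 105 and 128 CPM to between 136 and 161 CPM in the 3 WT clones and went from between 71.5 and 105 CPM to between 75.0 and 99.6 CPM in the 2 knockout clones, and the difference in log2FC was -0.36 ± 0.05 (adjusted p = 5.53e-05). Its call held without any one clone.

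Cxcl2 had the largest positive difference among the named genes, 1.23 ± 0.18 (adjusted p = 0.000164), which here means a shallower fall. Clone means went from between 70.2 and 274 CPM to between 9.37 and 31.5 CPM over the WT clones, while KO1 fell from 142 to 38.6 CPM and KO2 from 210 to 61.1 CPM. The induced genes Acod1 (difference 1.2), Ptgs2 (1.12), Gbp4 (1.12) and Gbp2b (0.85) had steeper responses in the knockouts in the fit over all clones. The call for Acod1 was lost with DESeq2 and without KO1, KO2 or either of 2 WT clones, that for Gbp4 without KO1, KO2 or 1 WT clone, that for Ptgs2 without KO1 or 1 WT clone, and that for Gbp2b without KO1. For Gbp2b clone means after IFNG were 1092 to 1594 CPM in WT and 1701 to 1887 CPM in the knockouts, and for Gbp4 122 to 181 CPM and 179 to 194 CPM. The Ptgs2 levels of the knockout clones, in contrast, lay inside the range of the WT clones in both treatments. For Acod1 they did so untreated, at 1.52 and 3.05 CPM against 0.608 to 8.55 CPM, and after IFNG KO2 was inside at 181 CPM and KO1 above at 405 CPM, against 66.8 to 355 CPM.

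On the other side Malt1, a scaffold of NF-kB signalling in lymphoid and myeloid cells, rose less in the knockouts (difference -0.80 ± 0.11, adjusted p = 9.28e-05), from 34.5 to 39.2 CPM in KO2 and 37.5 to 56.1 CPM in KO1 by clone means, against 24.5 to 46.6 CPM untreated and 45.7 to 121 CPM after IFNG over the WT clones. Adhfe1, an alcohol dehydrogenase, went from between 5.27 and 5.45 CPM to between 11.7 and 12 CPM in the knockouts and from between 6.02 and 7.01 CPM to between 19.1 and 23.1 CPM in WT (difference -0.58). Fas (-0.68), Fzd5 (-0.61) and Gda (-0.59) also had lower log2FC in the knockouts, and each lost its call without KO1 or either of 2 WT clones, Fas and Fzd5 also without KO2. Among 26 named genes of this comparison the calls of Dicer1, Adhfe1, Malt1, Cxcl2, Irgm2 and Tap1 held under every clone left out.

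**Figure D5:**
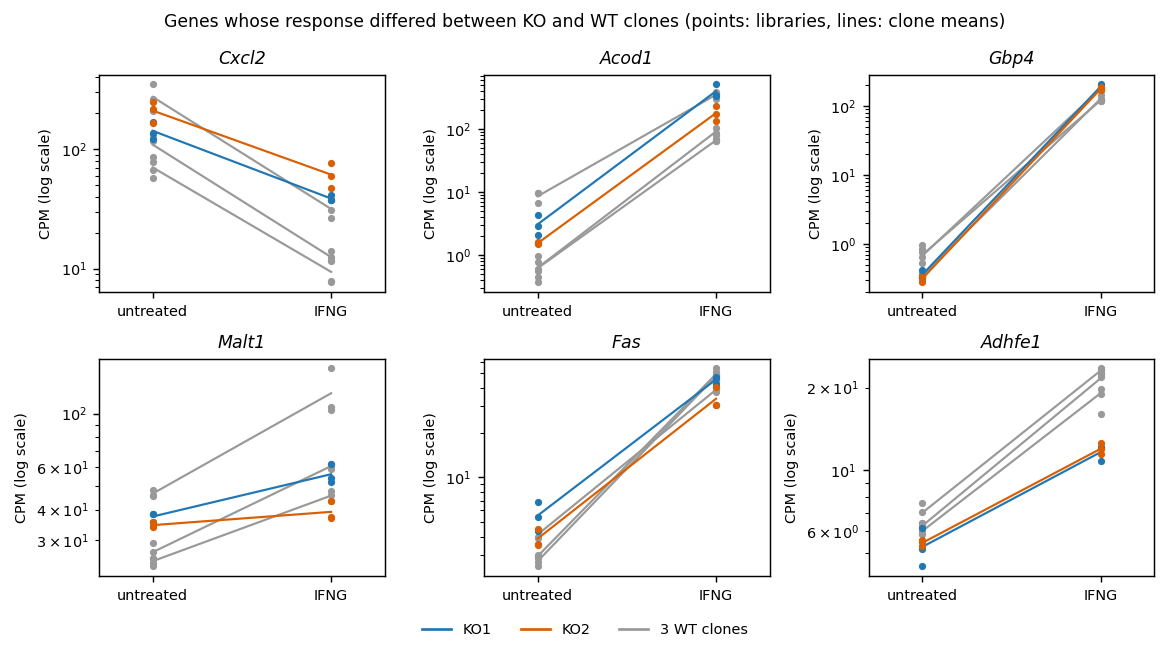
CPM (vertical, log scale) of 6 genes whose response differed between genotypes, untreated and after IFNG, for KO1 (blue), KO2 (orange) and the 3 WT clones (grey); points are libraries and lines join clone means. The knockout lines for Cxcl2 fall less steeply than the WT lines, and those for Adhfe1 and Malt1 rise less steeply. The grey WT lines for Acod1 spread widely, and after IFNG the KO1 mean lies above all WT means.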

How the data were processed

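Poly(A) RNA of J774A.1 clones went into paired-end NovaSeq libraries (KAPA mRNA HyperPrep). Per the study's methods the authors trimmed adapters (BBDuk), ran HISAT2 2.1.0 against mm10, kept unique alignments (SAMtools 1.10), merged technical replicates and assigned fragments with featureCounts 1.6.2, reversely stranded. Per the file headers a fragment was counted for each gene it overlapped. The deposited values are raw counts per gene with no normalization. The header names Gencode vM18 and the methods name RefSeq. The study's own DESeq2 1.26.0 comparisons were not used. RNA input and adapters are not given per library, so a batch could not be looked for.

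From the deposited counts, TMM-scaled edgeR 4.0.16 (R 4.3.3) quasi-likelihood fits were made with filterByExpr and Benjamini-Hochberg adjustment, at an adjusted p of 0.05. The main fit took the 12 knockout libraries with the clone as a term. Each clone was also fitted alone, and interactions tested KO1 against KO2 (12 libraries) and knockout against WT (30 libraries). edgeR's standard error is the absolute log2FC over the root of F, and DESeq2 1.42.0 standard errors are given where few untreated counts make it too small. Values per library are TMM-scaled CPM. The fits were tested on simulated data. No p-value was adjusted over a list alone.

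Members and the 37 gene lists (574 entries) were chosen with earlier results of these data known. Genes named beyond the lists were the 12 largest positive log2FC with at least 30 untreated counts, 5 CPM after IFNG and separated libraries, the 8 most abundant after IFNG with fewer untreated counts, the 12 most negative log2FC with at least 5 CPM untreated and separated libraries, the 5 largest gains per kb, and for each interaction the 5 largest differences in each direction with at least 5 CPM in some clone and treatment. For the comparison with WT both knockout clones also had to lie outside the range of the WT clones. Dicer1, Irgm1, Gbp4, Iigp1 and Tgtp2 were always named. Pde1b, Ak4, Atp6v0a1, Neat1, Malat1, Csf2rb2, Dusp10, Pou2f2 and Pim1 were named after their values were seen. Library totals were 19820090 to 37992642 fragments, and 67 of 54146 identifiers had no symbol. Promoters came from RefSeq (GRCm38.p6). A few list members are not reported here by name.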

Additional observations from a re-analysis of the deposited data

Results flagged for a closer look

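Each value here is a difference between log2FC that passed the interaction test of edgeR, and none was given an explanation. Of the clone differences, which are KO1 minus KO2, Socs3 (1.34), Zfp36 (1.1), Stat3 (0.52), Gbp7 (0.87), Atp6v0a1 (0.44) and H2-K2 (2.74) kept their call without any one library. Positive differences were also found for Cdc42ep2 (1.12), Gm43802 (1.11), Ier3 (0.96), Slfn4 (0.86), Nfkbia (0.75), Dusp10 (0.65), Pde1b (0.61), Pou2f2 (0.54), Ifi44 (0.52), Pim1 (0.51), Parp14 (0.47) and Csf2rb2 (0.40), and for the nuclear long non-coding RNAs Neat1 (0.85) and Malat1 (0.61). Anpep (-3.50) and Ak4 (-2.93) had the larger log2FC in KO2, from very low levels there.

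Of the genotype differences, which are knockout minus WT, Dicer1 (-0.36), Adhfe1 (-0.58), Malt1 (-0.80), Cxcl2 (1.23), Irgm2 (0.80) and Tap1 (0.44) kept their call without any one clone. The other GTPases with a larger log2FC in the knockouts were Gbp4 (1.12), Gbp2b (0.85), Gbp3 (0.61), Gbp2 (0.55), Igtp (0.48) and Irgm1 (0.35). Steeper rises were also found for Acod1 (1.2), Ptgs2 (1.12), Egr1 (0.81), Ifi44l (0.73), Slfn8 (0.47), Parp14 (0.37) and Psmb9 (0.31). Dusp6 (0.61), Tlr13 (0.49) and Ccnd1 (0.24) fell in the knockouts and had a positive difference. By clone means, the log2 responses of Tlr13 in the knockouts (-0.63 and -0.66) lay inside the WT range (-1.42 to -0.61). The response of KO1 for Dusp6, and of KO2 for Irgm1 and Ifi44l, also lay inside the WT range. Lower log2FC in the knockouts were found for Fas (-0.68), Fzd5 (-0.61), Gda (-0.59) and Myd88 (-0.24). Apart from Irgm2, whose call held, and Gbp3, which was not followed under the alternatives, each gene named after Tap1 lost its call without at least 1 clone. Acod1 and Egr1 lost it with DESeq2 as well.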

How the results depend on the processing

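The 5660 genes called in the knockouts became 5484 with DESeq2, 5670 with RLE factors, 5013 with counts summed per clone, 4307 without the clone term, 5381 with libraries thinned to the smallest total and 5190 to 5861 without single libraries, and 734 remained over 2-fold. The counts of KO1 (4043) and KO2 (3808) ranged over 3369 to 4221 and 3029 to 3906 without single libraries. The 22 clone differences became 43 with DESeq2, 14 at a mean of at least 10 counts, 138 without a count filter and 7 to 33 without single libraries. The 151 genotype differences became 384 without a count filter and 21 to 564 without single clones. Pearson's r between the clones was 0.982 at 5 CPM or more, and 9.66% of promoters held either motif in the 250 bases before the start, against 11.3%. Of 171 genes followed in the knockout response 13 lost their call under some alternative, 12 of them without the clone term, and none changed direction under the alternatives run. The cause of these shifts was not tested. No paired analysis was possible because the columns carry no replicate numbers, so the planned replicate blocks were not run. Unique alignment and shared fragments limit values of close copies and overlapping genes, and counts near 0 untreated limit the size of the steepest folds.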

Other observations

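Among the 601 genes over 2-fold higher, 462 (76.9%) were annotated as protein-coding, against 80.3% of all genes tested. Strongly induced genes outside the lists included Gm12250, from 0.0684 to 0.403 CPM untreated to 62.5 to 105 CPM after IFNG, and Ly6a, a surface antigen best known from haematopoietic stem cells, from 0.116 to 0.403 CPM to 16.5 to 27.2 CPM (87.7-fold).

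Chromosomes were not alike in the balance of calls, a description made after the values were seen. Over all tested genes 20.1% were higher and 19.2% lower. On chromosome 18, 115 of 348 tested genes were higher and 38 lower (median log2FC 0.07), and on chromosome 3, 214 of 735 were higher and 103 lower (0.05). Chromosome 1 had 249 of 925 higher and 152 lower (0.03). Chromosome 8 leaned the other way, with 113 of 757 higher and 195 lower (-0.03), as did chromosome 7, with 160 of 1127 higher and 241 lower (-0.03). Neighbouring genes are not independent, and no test was made.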
